A study of Homo sapiens with 12 samples.

Results

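The 45 keratin genes measured in this study and the 4 KRTAP2 genes, KRTAP2-1 to KRTAP2-4, are described here, 49 of 17687 named genes. The keratins were chosen by gene symbol, as every gene called KRT with a number, pseudogenes left out. The KRTAP2 genes were added because their rise in HCT 116 after BRG1 suppression was known, so their values there are a description with no test, and the fall of KRT23 in that line was known too when the family was chosen. The arrays hybridised RNA of HCT 116 and DLD1, established human colorectal cancer cell lines, after an siRNA against BRG1 (siBRG1) or a control siRNA (siControl). The 4 groups of 3 arrays each were HCT 116 siBRG1, HCT 116 siControl, DLD1 siBRG1 and DLD1 siControl, with no other allele or agent in the labels. BRG1, the protein of SMARCA4, is an ATPase of the SWI/SNF complexes that move nucleosomes, and the study asked what changes when colorectal cancer cells have less of it.

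Keratins form the intermediate filaments of epithelial cells. A type I keratin pairs with a type II keratin, and the pairs differ between tissues: KRT8 and KRT18 in simple epithelia, with KRT19 in the intestine, KRT5 and KRT14 in the basal cells of skin, and the hair keratins in the hair shaft and nail. Keratin-associated proteins, such as those of the KRTAP2 family, are cysteine-rich proteins that cross-link hair keratins in the shaft and are not known as products of the colon. Filaments attach to desmosomes and hemidesmosomes through plakins.

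Type I genes other than KRT18 cluster on chromosome 17 and type II genes on chromosome 12; of the keratins measured, 23 lie on chromosome 17 and 22 on chromosome 12. RefSeq lists 55 protein-coding keratin genes, and the other 10, KRT17 and KRT20 among them, were not analysed here. The 4 KRTAP2 genes lie side by side on chromosome 17. The 250 bases before each annotated gene start are shown because the members moved together (RefSeq, GRCh38.p14, minus strand). They lie at chr17:41047317-41047566 for KRTAP2-1, chr17:41055231-41055480 for KRTAP2-2, chr17:41060115-41060364 for KRTAP2-3 and chr17:41065880-41066129 for KRTAP2-4. Capitals mark an 18-base run that all 4 hold, which starts with a TATA-like motif.
KRTAP2-1: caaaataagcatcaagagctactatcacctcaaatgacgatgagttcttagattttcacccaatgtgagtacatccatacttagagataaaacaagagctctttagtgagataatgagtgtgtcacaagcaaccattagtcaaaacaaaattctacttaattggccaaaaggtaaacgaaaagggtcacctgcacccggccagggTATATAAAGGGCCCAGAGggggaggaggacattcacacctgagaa
KRTAP2-2: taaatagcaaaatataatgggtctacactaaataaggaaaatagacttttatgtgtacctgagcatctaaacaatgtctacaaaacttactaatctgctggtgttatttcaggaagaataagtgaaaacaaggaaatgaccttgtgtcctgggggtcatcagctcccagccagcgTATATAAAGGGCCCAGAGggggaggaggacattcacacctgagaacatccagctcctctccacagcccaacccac
KRTAP2-3: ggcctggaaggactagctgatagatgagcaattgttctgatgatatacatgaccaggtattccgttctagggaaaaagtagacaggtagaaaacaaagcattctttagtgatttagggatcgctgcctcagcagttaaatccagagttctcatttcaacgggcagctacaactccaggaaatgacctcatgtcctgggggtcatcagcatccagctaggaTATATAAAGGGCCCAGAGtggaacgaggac
KRTAP2-4: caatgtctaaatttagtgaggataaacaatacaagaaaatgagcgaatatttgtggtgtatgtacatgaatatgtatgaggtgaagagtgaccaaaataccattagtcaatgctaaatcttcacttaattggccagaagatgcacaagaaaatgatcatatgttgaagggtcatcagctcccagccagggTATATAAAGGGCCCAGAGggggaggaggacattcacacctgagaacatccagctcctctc
The shared run began 45, 75, 30 and 60 bases before the annotated start of KRTAP2-1, KRTAP2-2, KRTAP2-3 and KRTAP2-4. In the 30 bases just before it, 15 were the same in all 4 genes, and in the next 30 bases 2 were. Between pairs of genes, 34 to 54 of the 100 bases before the run were identical. These counts aligned the genes on the run without gaps, so stretches shared at shifted positions were missed. Bases after the run were not counted, but KRTAP2-1, KRTAP2-2 and KRTAP2-4 read alike there to the end of the KRTAP2-1 window. TATATAAA opens the shared run, so its presence in all 4 KRTAP2 promoters was given in advance and is no test of enrichment. Searched on both strands, TATATAAA occurred in 1.06% of the 35116 promoters of the same length. The AP-1 motif TGANTCA was found in none of the 4 windows and in 6.57% of all promoters. These are matches of letters in a window, not mapped sites.

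Array values are log2 units, on which a difference of 1 is a doubling. Values of different genes come from different probes and were not set against each other, and without detection calls in the table, low levels and background look alike. SMARCA4 fell in both lines, which checks the labels. In HCT 116 it averaged 6.73 ± 0.32 after siBRG1 and 9.95 ± 0.32 after siControl (SD, n = 3 each; log2 change −3.22, limma adjusted p = 1.14e-06), and in DLD1 6.39 ± 0.14 after siBRG1 and 10.18 ± 0.20 after siControl (change −3.80, limma adjusted p = 4.56e-07). EPCAM, a marker of intestinal epithelium, lay at 15.53 or above on every HCT 116 array and at 16.51 or above on every DLD1 array. Of 12 intestinal epithelial markers, 6 lay above the median level of all genes (6.86) in HCT 116 and 8 did in DLD1. None of the 12 passed the test after siBRG1 in HCT 116 (2 at an unadjusted p under 0.05; 6.95% of all genes were called) or in DLD1 (2 at an unadjusted p under 0.05; 0.198% of all genes were called). Over all 17687 genes, 3615 in HCT 116 and 1860 in DLD1 had an unadjusted p under 0.05. Between siControl cells 9 of the 12 markers were lower in HCT 116 than in DLD1, against 14.0% of all genes.

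All 4 KRTAP2 genes were higher in HCT 116 cells after siBRG1 than after siControl, by 3.10-fold to 12.5-fold. KRTAP2-1 (Entrez ID 81872) had 10.35, 11.74 and 11.54 on the HCT 116 siBRG1 arrays, against 8.20, 7.31 and 7.63 on the siControl arrays. The lowest siBRG1 array lay above the highest siControl array. The means were 11.21 ± 0.75 after siBRG1 and 7.71 ± 0.46 after siControl, a log2 change of 3.50 (SE 0.33), or 11.3-fold.

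KRTAP2-2 (Entrez ID 728279) read 10.29, 11.79 and 11.30 in HCT 116 siBRG1 cells, against 7.89, 7.21 and 7.35 in siControl cells. Its change was the highest of the family, 3.64 (SE 0.31, 12.5-fold), with no overlap of the groups. KRTAP2-3 (Entrez ID 730755) read 11.03, 12.26 and 11.90 after siBRG1, against 9.74, 8.21 and 8.54 after siControl. It changed by 2.90 (SE 0.38, 7.46-fold), also with no overlap. KRTAP2-4 (Entrez ID 85294) read 9.24, 9.69 and 10.64 after siBRG1, against 8.94, 7.94 and 7.79 after siControl. Its change was the lowest of the family, 1.63 (SE 0.41, 3.10-fold), and its groups were separated by the narrowest gap. In all 4 genes the siBRG1 array numbered 1 was the lowest of its group and the siControl array numbered 1 the highest. SMARCA4 was at 6.78 on that siBRG1 array, between the other two (6.39 and 7.03), and at 10.12 on that siControl array, also between the other two (10.15 and 9.59).

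The mean change over the family was 2.92 in HCT 116. KRTAP2 genes are close copies of each other and may share probes, so the 4 changes are not 4 independent measurements.

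In DLD1, whose arrays did not choose the genes, none of the 4 KRTAP2 changes passed the test, which 0.198% of all genes passed there. At that share, no call among 4 genes does not show a lack of response. All 4 changes were positive in the full set of arrays, between 0.33 and 0.77, and KRTAP2-4 turned to −0.05 without DLD1 siControl replicate 3. KRTAP2-2 was at 7.73, 7.81 and 8.29 in DLD1 siBRG1 cells, against 7.23, 7.30 and 6.98 in siControl cells. It was the member whose groups did not overlap in DLD1, with a change of 0.77 (SE 0.31, limma adjusted p = 0.381, unadjusted p = 0.0267); groups that do not overlap in that direction occurred in 8.33% of all genes. KRTAP2-1 was at 7.67, 8.10 and 8.53 after siBRG1 and at 7.83, 7.64 and 7.50 after siControl. Its groups overlapped, and the change of 0.44 did not pass (limma adjusted p = 0.738). KRTAP2-3 was at 9.47, 8.76 and 9.31 in siBRG1 cells and at 8.94, 8.20 and 8.29 in siControl cells (change 0.70, limma adjusted p = 0.570). KRTAP2-4 was at 8.82, 8.37 and 8.31 in siBRG1 cells and at 8.99, 8.11 and 7.41 in siControl cells (change 0.33, limma adjusted p = 0.871). Both of these overlapped between the groups. Leaving out 1 array moved KRTAP2-4 to as much as 0.74 (without DLD1 siControl replicate 1), with 0.17 without siBRG1 replicate 1, and KRTAP2-1 to 0.23 without siBRG1 replicate 3 and 0.66 without siBRG1 replicate 1.

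Set side by side, the changes were 3.50 in HCT 116 and 0.44 in DLD1 for KRTAP2-1, 3.64 and 0.77 for KRTAP2-2, 2.90 and 0.70 for KRTAP2-3, and 1.63 and 0.33 for KRTAP2-4. The HCT 116 change minus the DLD1 change was 3.05 (SE 0.47), 2.87 (SE 0.44), 2.20 (SE 0.54) and 1.30 (SE 0.58) in the same order, given without a test because it shares the arrays that chose the genes. Between siControl cells, HCT 116 minus DLD1 was 0.05 to 0.35, with overlapping arrays for every member.

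**Figure D1:**
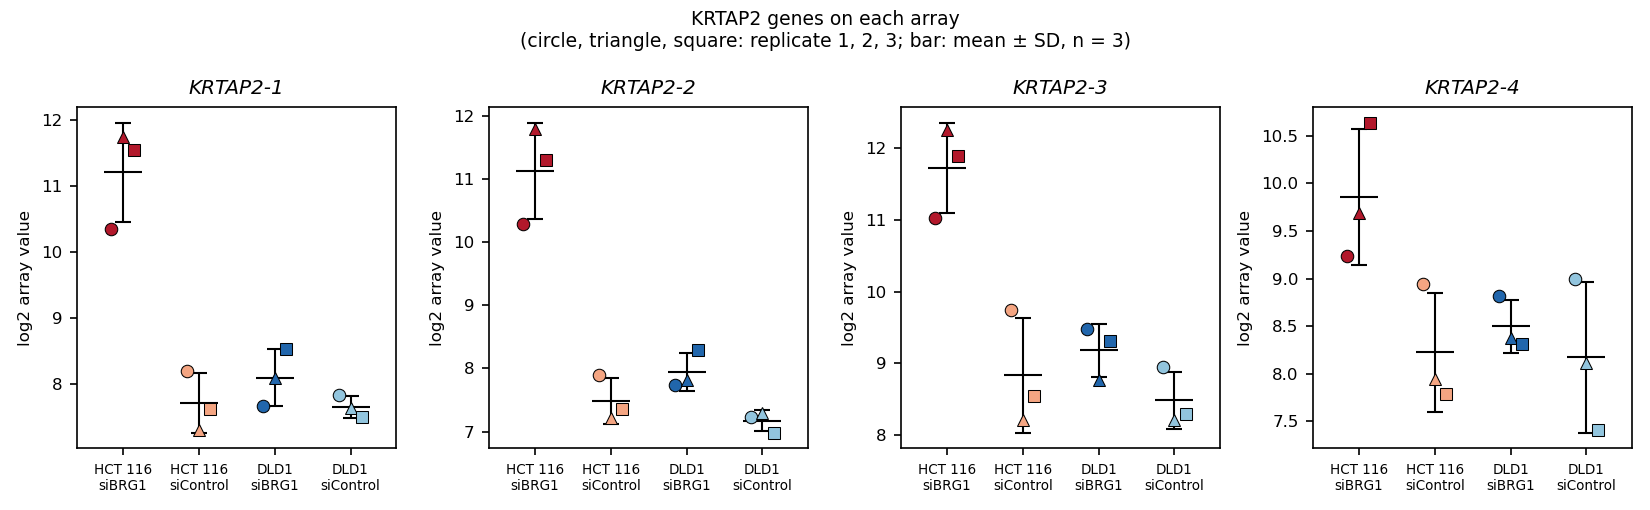
Array values of the 4 KRTAP2 genes in log2 units (vertical axis, scaled for each gene) in the 4 groups; symbols are arrays by replicate number and bars are mean ± SD of 3 arrays. HCT 116 siBRG1 arrays lay above all HCT 116 siControl arrays for each gene, by the narrowest margin for KRTAP2-4, and the DLD1 groups overlapped except for KRTAP2-2.

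Another 81 KRTAP genes were measured, 28 of them on chromosome 17, and none was called in HCT 116 by limma, against 6.95% of all genes called. Against 3615 of all 17687 genes, 5 of the 81 had an unadjusted p under 0.05 there. By their mean over all arrays, 3 of the 81 lay above the median level of all genes (6.86), while all 4 KRTAP2 genes did. For the low ones, a lack of change cannot be told from background. The median change of the 81 genes was 0.07 in HCT 116, with a range of −0.66 to 0.80, against −0.01 for all genes. Of these, 5 had groups that did not overlap, all higher after siBRG1, or 6.17% of the 81 against 11.9% of all genes in that direction. In gene order, KRTAP1-1 is the nearest measured gene on one side of the KRTAP2 genes and KRTAP4-7 on the other. KRTAP1-1 changed by −0.01 (SE 0.22, limma adjusted p = 0.985) and KRTAP4-7 by 0.29 (SE 0.16, limma adjusted p = 0.363) in HCT 116. The 4 KRTAP1 genes lay between −0.01 and 0.52, the 3 KRTAP3 genes between −0.02 and 0.30, the 11 KRTAP4 genes between −0.13 and 0.80, and the 7 KRTAP9 genes between −0.05 and 0.53. KRTAP4-8, at the top of its family with 0.80 (limma adjusted p = 0.107), passed without HCT 116 siControl replicate 1 (1.08, limma adjusted p = 0.0291), as did KRTAP26-1 (0.82, limma adjusted p = 0.0347), which also passed with the replicate block (0.62, limma adjusted p = 0.0344); both passed with array weights (limma adjusted p = 0.0134 and 0.0234) and were named after their values were seen. In DLD1 none of the 81 was called either, with 1 at an unadjusted p under 0.05, against 1860 of all 17687 genes. The 81 genes had a median change of 0.05 and a range of −0.45 to 1.09 there. The highest of them there, KRTAP4-1 (1.09, SE 0.37, limma adjusted p = 0.278; named after its value was seen), had a larger change in DLD1 than any KRTAP2 gene.

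**Figure D2:**
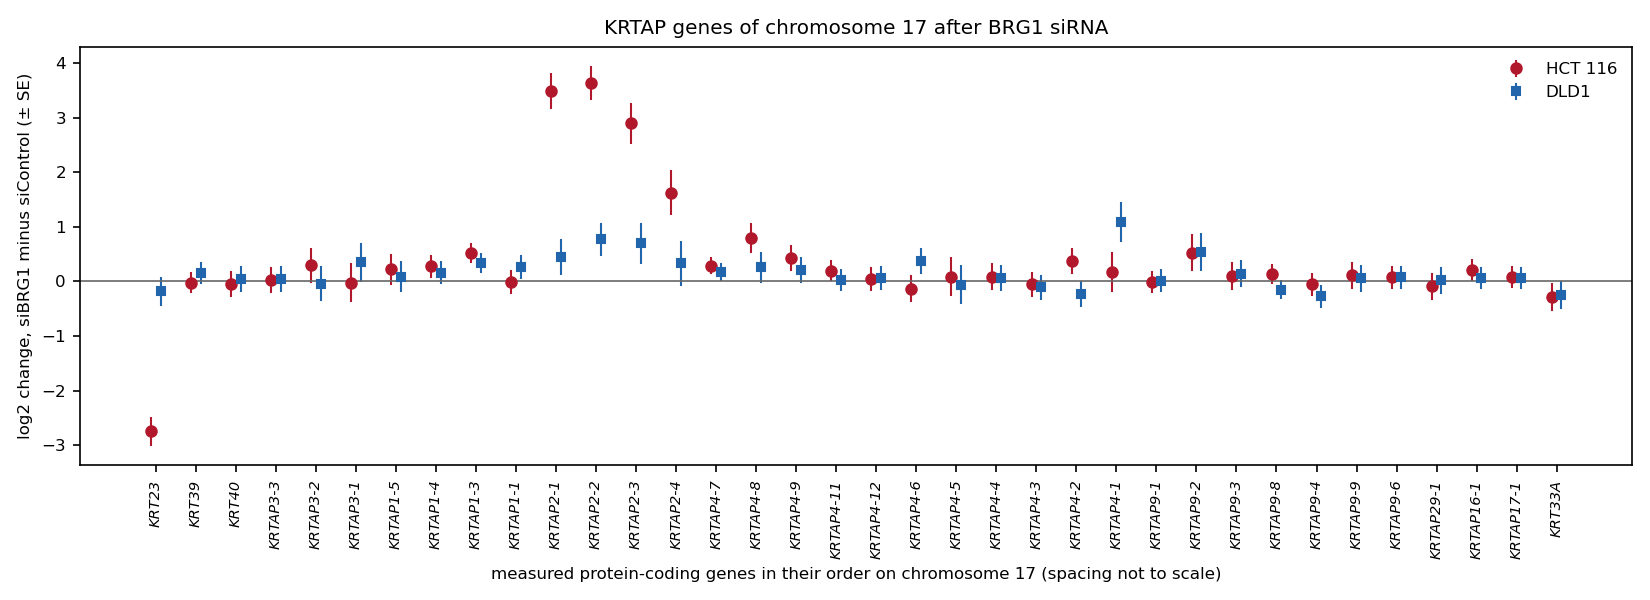
Log2 change after siBRG1 (vertical axis) ± SE of the genes measured from KRT23 to KRT33A on chromosome 17, set in gene order on the horizontal axis without genome distances, in HCT 116 (circles) and in DLD1 (squares). The 4 KRTAP2 genes (1.63 to 3.64) stood above their neighbours in HCT 116, and KRT23 (−2.75), 9 measured genes away from KRTAP2-1, stood below; none of those 9 was called, with changes between −0.05 and 0.52.

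KRT23 was the keratin that fell in HCT 116. Of 45 keratins, 0 rose and 1 fell there by limma, or 2.22% called against 6.95% of all genes (2.82% higher and 4.13% lower). Against 3615 of all 17687 genes, 7 of the 45 keratins had an unadjusted p under 0.05. Arrays of 7 keratins (15.6%) did not overlap between the siRNAs, against 24.9% of all genes. The median keratin change was 0.00, against −0.01 for all genes. Of the 45 keratins, 35 lay below the median level of all genes in all 4 groups. For such low genes a lack of change cannot be told from background, which limits the comparison with all genes. KRT23 (Entrez ID 25984), a type I keratin of simple epithelia, had 6.94, 7.80 and 7.09 in HCT 116 siBRG1 cells, against 9.49, 10.27 and 10.31 in siControl cells, with no overlap. The means were 7.28 ± 0.46 after siBRG1 and 10.02 ± 0.46 after siControl (SD, n = 3 each), a change of −2.75 (SE 0.27; 95% interval −3.32 to −2.18), or 6.71-fold lower, with a limma adjusted p of 4.65e-05. In DLD1 the gene was at 4.16, 3.91 and 3.49 after siBRG1 and at 3.97, 4.04 and 4.09 after siControl, all low, with a change of −0.18 (95% interval −0.75 to 0.39; limma adjusted p = 0.908). The difference between the lines was −2.57 (SE 0.38, limma adjusted p = 0.00777), and KRT23 was the only keratin to pass that test, which 0.334% of all genes passed, 0.175% downward. In DLD1 both groups lay well under the median level, where a fall could not be told from background. KRT23 was also the only keratin called in the average of both lines (−1.46, limma adjusted p = 0.000553; 8.68% of all genes were called, 4.68% lower), an average made of −2.75 in HCT 116 and −0.18 in DLD1.

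The main keratins of simple epithelia had small changes in HCT 116 that did not pass. KRT8 was at 15.92, 15.45 and 15.51 in siBRG1 cells and at 16.17, 16.05 and 16.12 in siControl cells. Every siBRG1 array lay lower, and the change was −0.48 (95% interval −0.87 to −0.09; limma adjusted p = 0.135). KRT18, the type I partner of KRT8, was at 14.53, 14.36 and 14.39 in siBRG1 cells and at 14.82, 14.99 and 14.97 in siControl cells. It too was lower on every siBRG1 array, by a like amount (−0.50, 95% interval −0.89 to −0.11; limma adjusted p = 0.123). KRT19, another type I keratin of the intestine, lay the other way, at 15.71, 15.78 and 15.60 in siBRG1 cells and 14.83, 15.23 and 15.42 in siControl cells. Its change was 0.53 (95% interval 0.12 to 0.95; limma adjusted p = 0.124), with no overlap. KRT7, a type II keratin of ducts, changed by −0.24 with overlapping arrays (limma adjusted p = 0.645). Of these 5 keratins of simple epithelia, 1 fell and 4 did not pass, where 6.95% of all genes were called and 4.13% fell. The 1 was KRT23, whose fall was known when the family was chosen. Arrays of 4 of the 5 did not overlap, against 24.9% of all genes, and the median change was −0.48.

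In DLD1 the same keratins did not pass either. KRT8 changed by 0.02 (95% interval −0.37 to 0.41), KRT18 by 0.06 (95% interval −0.33 to 0.45), KRT19 by 0.01 (95% interval −0.41 to 0.43) and KRT7 by −0.09, with overlapping arrays. The difference between the lines did not pass for KRT8 (−0.50, limma adjusted p = 0.623), KRT18 (−0.55, limma adjusted p = 0.552) or KRT19 (0.53, limma adjusted p = 0.636).

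Most other keratins lay low. Of the 45 keratins, 35 were below the median level of all genes in all 4 groups, with values from 2.71 to 6.75, among them KRT5 and KRT14 of basal cells and all 13 hair and nail keratins. KRT80, a type II keratin of many epithelia, had the largest change of the suprabasal group in HCT 116. It was at 5.67, 4.88 and 4.99 in HCT 116 siBRG1 cells and at 5.58, 6.47 and 6.51 in siControl cells. Its change was −1.01 (SE 0.31), just outside the threshold (limma adjusted p = 0.0664), and the groups overlapped. It passed without HCT 116 siControl replicate 1 (−1.31, limma adjusted p = 0.0207) and without HCT 116 siBRG1 replicate 1 (−1.25, limma adjusted p = 0.0387). In DLD1 its change was 0.58 (limma adjusted p = 0.565) and the difference between lines −1.59 (limma adjusted p = 0.189).

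In the other keratin groups no gene was called after siBRG1 in HCT 116 or DLD1, against 6.95% and 0.198% of all genes. In HCT 116 the 13 keratins of suprabasal skin, cornea and mucosa had a median of −0.02, the 9 of the root sheath 0.14 and the 13 of hair and nail 0.05. KRT5, the type II keratin of basal cells, changed by −0.52 in HCT 116 (limma adjusted p = 0.137) and by −0.34 in DLD1 (limma adjusted p = 0.609), at values of 3.61 to 4.49. KRT16, a wound keratin, changed by 0.01 in HCT 116 and 0.20 in DLD1. KRT76 of oral epithelium, KRT77 of sweat ducts and the hair keratin KRT35 changed by 0.23, 0.15 and 0.08 in HCT 116, none past the threshold. In DLD1 0 keratins were called by limma, against 0.198% of all genes. An unadjusted p under 0.05 was found for 5 of the 45 keratins, a share like that of all genes (1860 of 17687). The 5 keratins were KRT71 (−0.64), KRT33B (−0.49), KRT32 (0.40), KRT83 (0.57) and KRT74 (0.69), all at low levels. But for KRT71, they were named after their values were seen. Of the keratins, 9 (20.0%) had groups that did not overlap there, against 15.5% of all genes. KRT71, a root sheath keratin, was at 4.88, 4.73 and 5.10 in DLD1 siBRG1 cells and at 5.31, 5.46 and 5.84 in siControl cells, a change of −0.64 (limma adjusted p = 0.187); in HCT 116 it changed by 0.24.

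**Figure D3:**
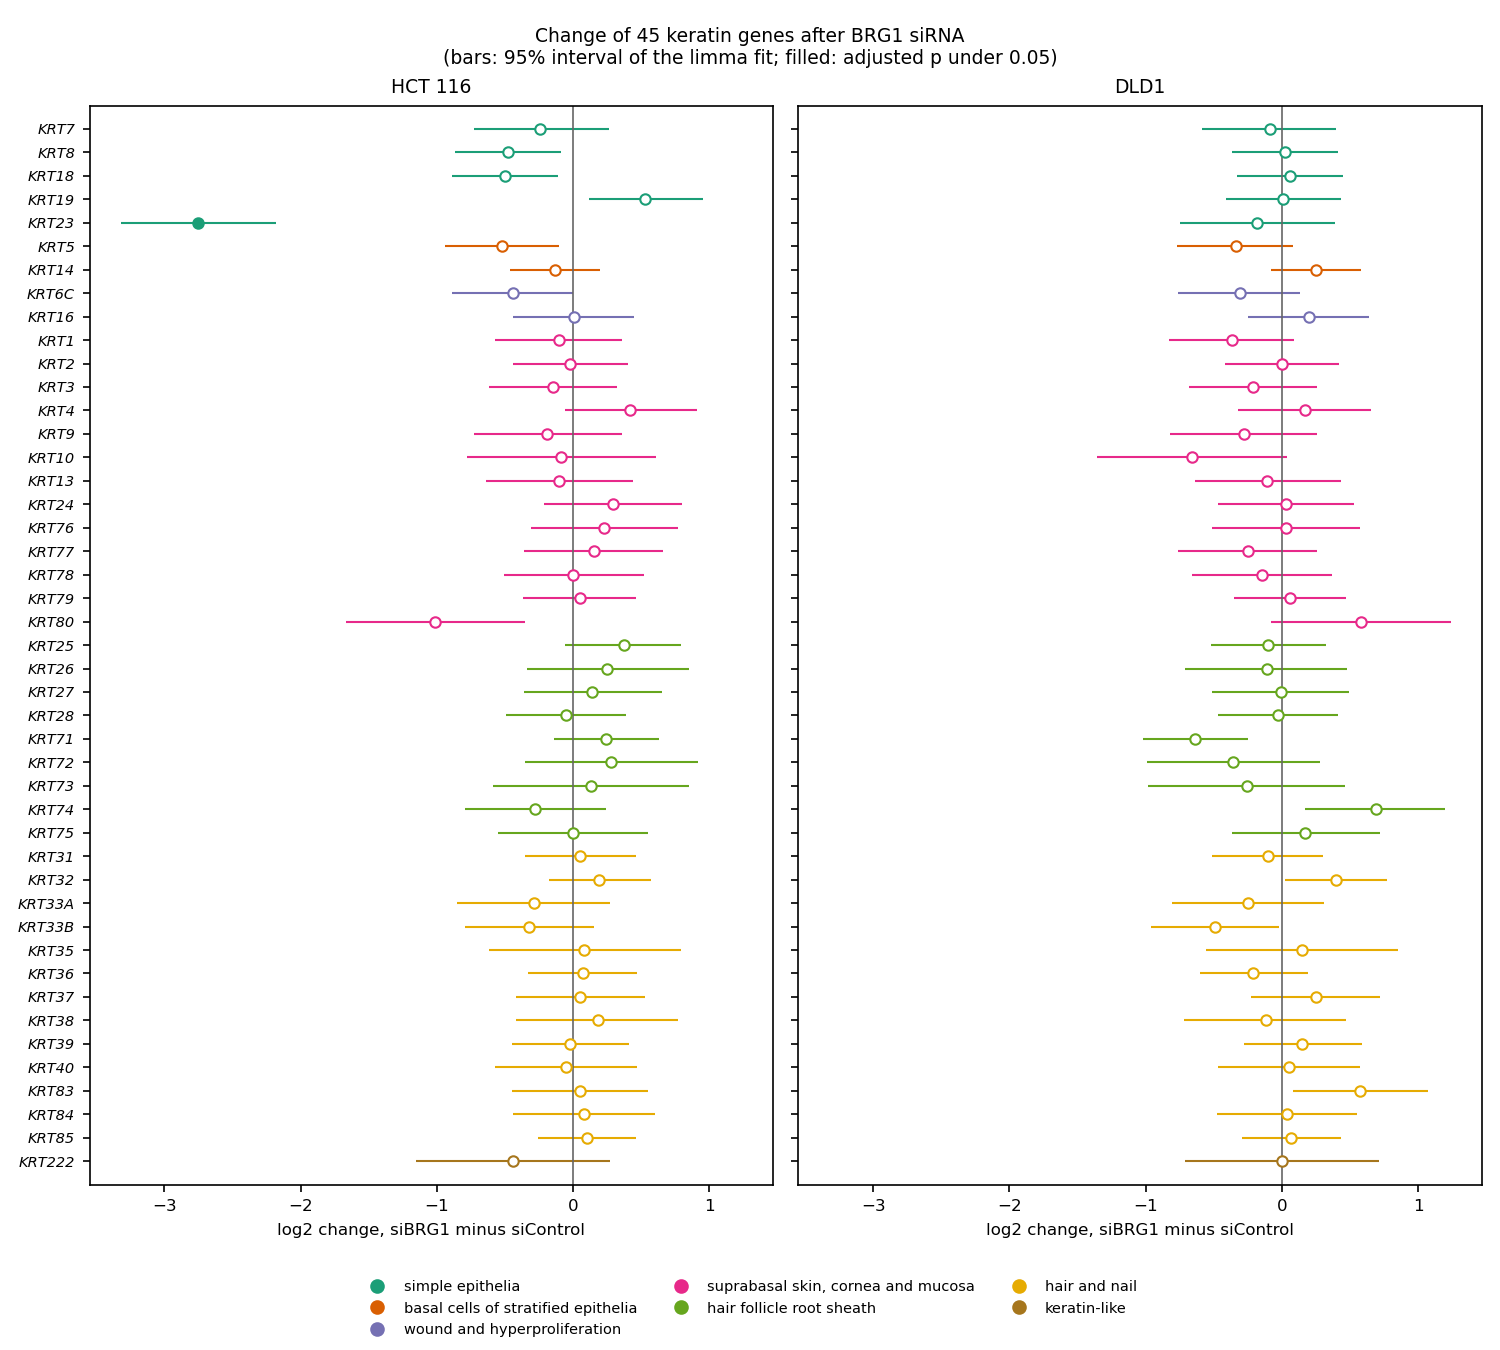
Log2 change after siBRG1 (horizontal axis, the same scale in both panels) of the 45 keratins in HCT 116 and DLD1, coloured by the tissue of the keratin, with the 95% interval of the limma fit; filled points have an adjusted p under 0.05. KRT23 in HCT 116 (−2.75) is the only filled point.

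**Figure D4:**
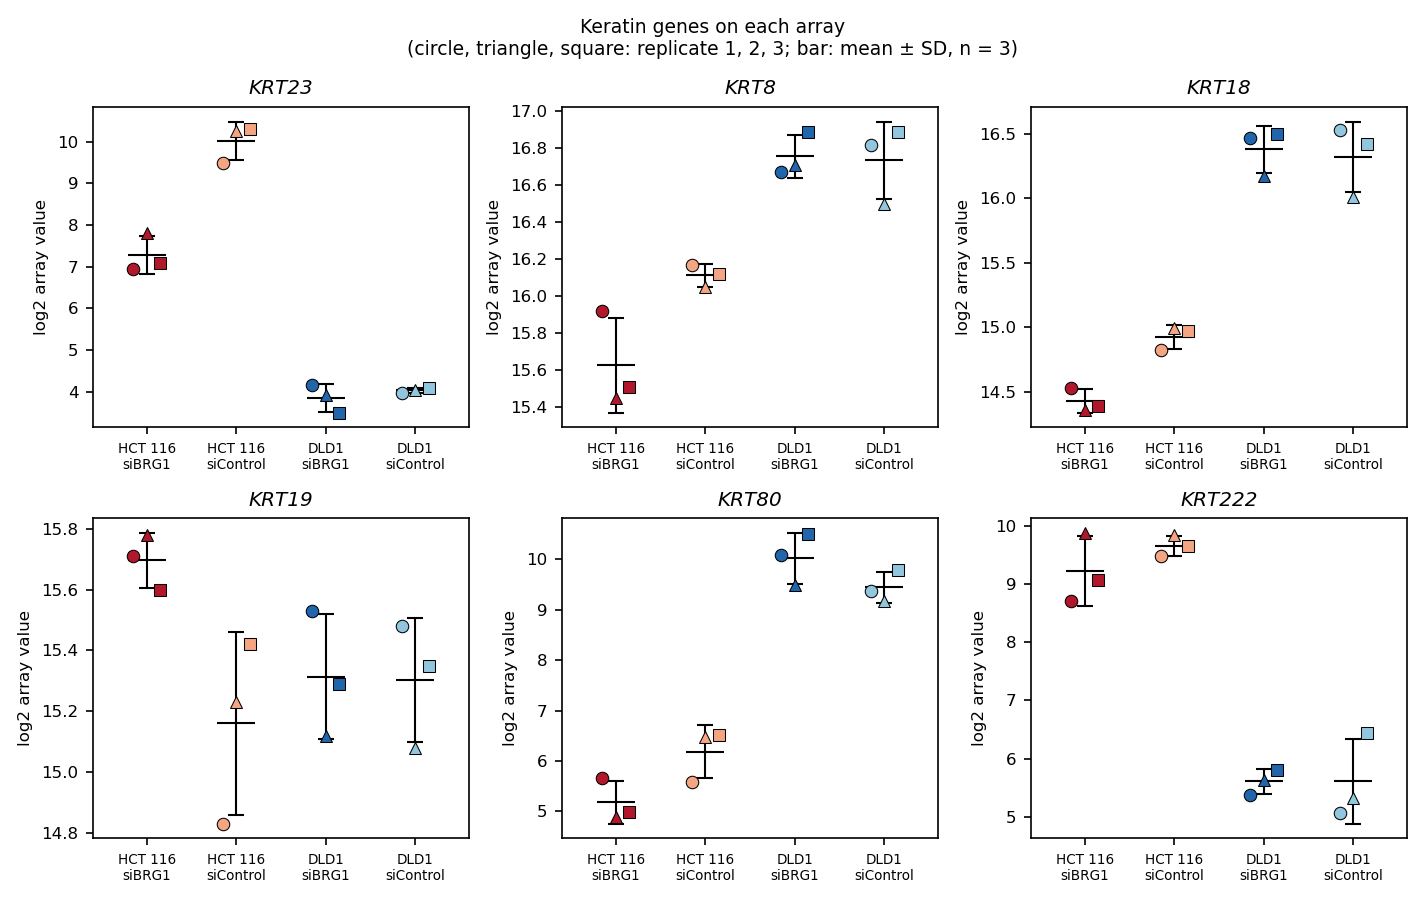
Array values in log2 units (vertical axis, scaled for each gene) of KRT23, KRT8, KRT18, KRT19, KRT80 and KRT222 in the 4 groups, symbols by replicate number and bars mean ± SD of 3 arrays. KRT23 is lower in HCT 116 siBRG1 than in siControl cells and low in DLD1, and KRT80 and KRT222 differ between the lines.

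Several keratins differed between the lines without BRG1 suppression. Between siControl cells, 3 of 45 keratins were higher and 5 lower in HCT 116, or 17.8% called against 27.6% of all genes (13.6% higher and 14.0% lower). Arrays of 14 keratins (31.1%) did not overlap, against 40.0% of all genes. KRT23 was higher in HCT 116 by 5.99 on the array scale (SE 0.27, limma adjusted p = 1.60e-10), at 9.49 or above on the 3 HCT 116 siControl arrays and at 4.09 or below on the 3 DLD1 siControl arrays. No fold is given for KRT23, KRT222 or KRT80, since their lower line may lie at background. KRT222, a keratin-like gene, was at 9.48, 9.83 and 9.65 in HCT 116 siControl cells and at 5.07, 5.32 and 6.44 in DLD1 siControl cells. It was higher in HCT 116 by 4.04 (SE 0.33, limma adjusted p = 1.83e-07), and its change after siBRG1 did not pass in either line (−0.44 and 0.00). KRT80 was at 5.58, 6.47 and 6.51 in HCT 116 siControl cells and at 9.37, 9.18 and 9.79 in DLD1 siControl cells, a difference of −3.26 (SE 0.31, limma adjusted p = 9.38e-07). KRT18 was also lower in HCT 116 (−1.40, SE 0.18, 2.63-fold, limma adjusted p = 2.69e-05), and so was KRT8 (−0.63, SE 0.18, limma adjusted p = 0.0176). KRT19 did not pass (−0.14, limma adjusted p = 0.666). KRT71 (−0.72, limma adjusted p = 0.00722) and KRT31 of hair (−0.63, limma adjusted p = 0.0212) also passed, at low levels. KRT78 passed too (0.79, limma adjusted p = 0.0232), at a mean of 6.88 in HCT 116 siControl cells and 6.09 in DLD1 siControl cells, near the median level of 6.86. KRT8, KRT31 and KRT78 passed in 9, 8 and 8 of the 12 fits that left out 1 array, and the other 5 passed in all 12. Limma adjusted p-values where the call was lost reached 0.0745 for KRT8 (without DLD1 siControl replicate 3), 0.0917 for KRT31 (without HCT 116 siControl replicate 3) and 0.110 for KRT78 (without HCT 116 siControl replicate 1).

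**Figure D5:**
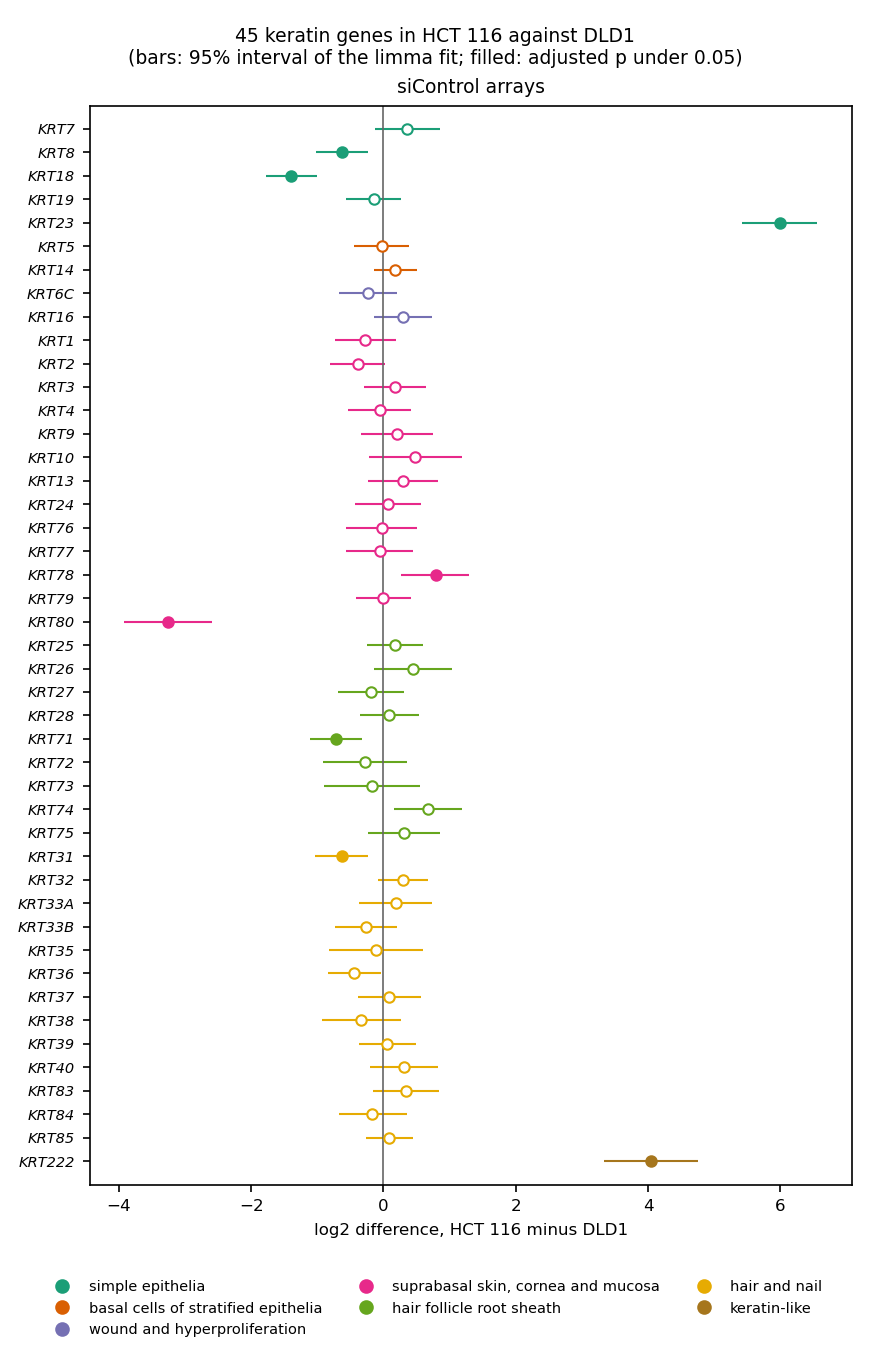
Log2 difference between HCT 116 and DLD1 siControl cells (horizontal axis) of the 45 keratins with the 95% interval of the limma fit; filled points have an adjusted p under 0.05. KRT23 (5.99) and KRT222 (4.04) lay highest and KRT80 (−3.26) lowest.

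The partner lists held other intermediate filament genes, desmosome, plakin, linker, hemidesmosome and cornified envelope genes, and regulators of keratin genes. Of their 90 distinct genes measured, 9 were called in HCT 116, or 10.0% against 6.95% of all genes. Of these 9, 7 were regulators of keratin genes, a list written with an earlier result for JUN known. Among the 66 genes of all partner lists but the regulators, only IFFO2 and CSTA were called. The pooled share above that of all genes thus came from the regulator list. Of 13 desmosome genes 0 were called, of 15 plakins and keratin linkers 0, and of 5 hemidesmosome genes measured 0, with medians of 0.02, 0.02 and 0.25. At an unadjusted p under 0.05 the counts were 1, 1 and 2, against 3615 of all 17687 genes. Lists of this size hold few genes at the 6.95% called over all genes. The desmosomal cadherin gene DSC3 had the largest change of the desmosome list (0.61, limma adjusted p = 0.121). The hemidesmosome integrin gene ITGB4 changed by −1.0 (limma adjusted p = 0.0596), and over the alternatives its limma adjusted p ran from 0.00844 without HCT 116 siBRG1 replicate 1, where the change was −1.37, to 0.212 without HCT 116 siBRG1 replicate 3, where it was −0.83. Of 17 other intermediate filament genes 1 rose, IFFO2, at 8.43 ± 0.24 after siBRG1 and 7.0 ± 0.35 after siControl (change 1.44, SE 0.22, limma adjusted p = 0.00151). Of 19 cornified envelope genes 1 fell, CSTA, an inhibitor of cysteine proteases, at low levels of 5.18 ± 0.35 after siBRG1 and 6.49 ± 0.20 after siControl (change −1.31, limma adjusted p = 0.0062).

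Of 24 regulators of keratin genes, 5 rose and 2 fell in HCT 116, or 29.2% called against 6.95% of all genes. JUN, a subunit of AP-1, was at 10.17, 11.15 and 10.78 after siBRG1 and at 6.29, 7.07 and 6.81 after siControl, far apart (change 3.98, SE 0.31, limma adjusted p = 5.15e-06). ETS1, an ETS factor, rose by 1.43 (limma adjusted p = 0.00115), and EHF, an epithelial ETS factor, fell by 1.49 (limma adjusted p = 0.000977). GRHL3 (1.25), JUNB (0.87) and KLF5 (0.71) also rose and GRHL2 (−0.91) fell; these 4 were named after their values were seen. GRHL2 no longer passed without siControl replicate 2 or 3 or siBRG1 replicate 2 or 3 of HCT 116 (limma adjusted p 0.0505 to 0.0740) or with each line fitted alone (0.0564), JUNB without siControl replicate 2 (limma adjusted p = 0.0578), and KLF5 without siControl replicate 3 or siBRG1 replicate 2 (limma adjusted p 0.0580 and 0.0571). In DLD1 none of the 24 regulators was called, against 0.198% of all genes. Against 1860 of all 17687 genes, 7 of the 24 had an unadjusted p under 0.05 there. Arrays of 8 regulators (33.3%) did not overlap between the siRNAs in DLD1, against 15.5% of all genes. JUN changed by 0.98 in DLD1 (limma adjusted p = 0.232). The list was written with an earlier result for JUN known.

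In DLD1 none of the 90 was called by limma, where 0.198% of all genes were. Against 1860 of all 17687 genes, 10 of the 90 had an unadjusted p under 0.05. The desmosomal cadherin gene DSC2 came closest among the desmosome genes (1.02, limma adjusted p = 0.213; 1.46 and limma adjusted p = 0.0259 without DLD1 siControl replicate 2). Fibroblast, immune and endothelial markers lay low on average, at 4.96 to 5.29, 5.19 to 5.32 and 4.54 to 4.71 on HCT 116 siBRG1 arrays and at 5.05 to 5.30, 4.96 to 5.18 and 4.48 to 5.04 on siControl arrays. Of the 9 fibroblast and muscle markers measured, 2 lay above the median level in each group, COL1A2 (7.68 to 8.95 over all arrays) and ACTA2 (6.74 to 8.55). Of the 9 immune markers, 3 did in HCT 116 siBRG1 cells (CD79A, CD68 and NKG7) and 1 in each other group, and of the 8 endothelial markers 0 did in HCT 116 and 1, ERG, in DLD1. COL1A1, PTPRC and PECAM1 lay between 3.0 and 5.35 on all arrays. ACTA2 averaged 8.17 in HCT 116 siBRG1 cells and 7.29 in siControl cells (change 0.89, limma adjusted p = 0.0204), and CD68 7.05 in siBRG1 cells and 5.76 in siControl cells (change 1.29, limma adjusted p = 0.0036). The ACTA2 call was lost without HCT 116 siControl replicate 1 (limma adjusted p = 0.0574), siControl replicate 3 (0.0654) or siBRG1 replicate 1 (0.0732). Their part in the results above was not tested.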

How the data were processed

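RNA of 12 samples was hybridised to single-colour Affymetrix arrays. Per the submitters' processing notes, the authors obtained the deposited log2 values by RMA, using Affymetrix Power Tools. RMA subtracts background, equalises probe distributions across arrays and summarises probes per feature. Its version and the genome build are not stated in the sources used. Values run up to 18.05, and 94 to 112 values per array exceed 16, the limit of a 16-bit scanner, so a further step that no source names is part of the scale and of each fold change. Array medians were 6.36 to 6.50; the number of arrays, 3 per group, limits the precision. No label tells whether replicate arrays are separate cultures; the p-values therefore reflect the spread of these arrays alone, which could be technical. Scan dates, siRNA sequences and times after transfection were not stated. For 4 HCT 116 samples the source name differs in a number from the title; grouping followed titles and characteristics.

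Of 21448 features, 17709 had 1 symbol in the platform annotation, 0 several and 3739 none; symbols were updated through Entrez IDs, and the brightest row of the 20 genes with several was kept, which left 17687 genes. No member had several rows. Limma 3.58.1 in R 4.3.3 fitted 4 group means (lmFit, eBayes; 8 residual and 6.66 prior degrees of freedom), with Benjamini-Hochberg adjustment over all genes of a contrast and calls at an adjusted p under 0.05. The step was tested on simulated data. Members, gene lists and tests were chosen with earlier results of these data known. Genes named were all KRTAP2 genes, every called keratin, the 12 brightest keratins, the brightest of each role group, SMARCA4, and, for each partner list and line, the 3 called genes that changed most (fewer if fewer were called; with no call, the gene that changed most). Any other gene named, such as a neighbour or a cell type marker, was chosen after its values were seen.

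Titles number the arrays 1 to 3 in each group. Within DLD1, same-numbered siBRG1 and siControl arrays deviated from their group means together (correlations 0.49, 0.46 and 0.29, each over 0.1), so that the numbers pair these arrays on the evidence of the data, not the labels; in HCT 116 the correlations were 0.30, 0.15 and 0.03, and pairing was not taken as shown. The reported fit has no block in either line, and the block was an alternative. The reported DLD1 p-values and shares of all genes called therefore leave this pairing out. With the block, limma adjusted p-values in DLD1 were 0.0711 for DSC2, against 0.213 without it, and 0.328 to 0.757 for the KRTAP2 genes. Alternatives were array weights, a replicate block, a robust trended prior, separate fits per line, centred or quantile-normalized arrays, genes above the median level, averaging of several rows per gene, and leaving out each array. Promoters came from a RefSeq table of GRCh38.p14, which held 34 of the 49 members.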

Additional observations from a re-analysis of the deposited data

Results flagged for a closer look

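The test of the difference between the HCT 116 and DLD1 changes after siBRG1 passed for KRT23 and for JUN. For KRT23 the HCT 116 change minus the DLD1 change was −2.57 (limma adjusted p = 0.00777), from −2.75 in HCT 116 and −0.18 in DLD1, where the gene lay at 3.49 to 4.16 in both groups. A fall at that level could not be told from background, so the difference does not show that the gene responds differently in DLD1. For JUN the difference was 2.99 (limma adjusted p = 0.00777), from 3.98 in HCT 116 and 0.98 in DLD1.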

How the results depend on the processing

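Of the results on counts and the family's mean change, 44 of 52 alternatives other than leaving out an array, and 79 of 84 that left one out, stayed within 1.5 times the reported count or the spread between replicates. A count cannot reverse. The mean KRTAP2 change in HCT 116 stayed positive, but the genes were chosen for that rise. With genes above the median level only, which drops KRT23 because its mean over all arrays is lower, 0 keratins were called in the average of the lines, 0 in the difference between lines and 4 between the siControl lines, and the 1 called in HCT 116 was KRT80 (−1.01, limma adjusted p = 0.0438). A trended and robust prior called 4 keratins in HCT 116 (KRT8, KRT18, KRT19 and KRT23). Array weights called 3 in HCT 116 (KRT18, KRT23 and KRT80), 2 in the average and 2 in the difference between lines, and 16 partner genes against 9. Leaving out each array in turn gave 0 keratins in DLD1, 1 to 2 in HCT 116, 1 to 2 in the average, 1 in the difference and 5 to 9 between the siControl lines; the mean KRTAP2 change in HCT 116 ran from 2.72 to 3.29 and the called partner genes from 7 to 11. HCT 116 rose to 2 without HCT 116 siControl replicate 1 or siBRG1 replicate 1 (KRT80 both times). The average rose to 2 without HCT 116 siControl replicate 1 (KRT6C) or siControl replicate 2 (KRT5, −0.53, limma adjusted p = 0.0324), and the siControl lines fell to 5 without DLD1 siControl replicate 3. KRT23 passed in HCT 116, the average, the difference and the siControl lines in all 12 such fits. With the replicate block the keratin counts were 0 in DLD1, 1 in HCT 116, 1 in the average and 1 in the difference, and it changed no keratin or KRTAP2 call; the siControl lines have no blocked fit. The other KRTAP genes called in HCT 116 numbered 1 with the block (KRTAP26-1), 1 on centred arrays (KRTAP23-1), 2 with array weights and 0 to 2 with an array left out, a check chosen after seeing the data. For the single genes, together with the count of other KRTAP genes called, 4591 values kept their side of the threshold or their count. That number includes genes far from the threshold, and changes in a line from which no array was left out. It therefore overstates how stable the calls were. Of the single genes, 54 values newly passed and 35 no longer passed. How many values had passed in the reported fit, against which the 35 would be set, was not counted. The 4 values that moved were all of that KRTAP count. Without detection calls, a low keratin cannot be told from background. The cause of these shifts was not tested.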
